A study of Mus musculus with 32 samples.

Results

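The 35 genes described here encode the enzymes that break down fatty acids in mitochondria, peroxisomes and microsomes, enzymes of ketone body metabolism, and known targets of the nuclear receptor PPARα. They were taken by gene symbol from the 47643 Ensembl gene IDs of the count table, and fall into 5 genes of fatty acid activation and import into mitochondria, 11 of mitochondrial beta-oxidation, 3 of electron transfer, 2 of ketone metabolism, 6 of peroxisomes, 4 acyl-CoA thioesterases, 2 microsomal hydroxylases and 2 other PPARα targets. RNA came from liver and epididymal white adipose tissue (eWAT) of C57BL/6 male mice (C57BL/6J in the study's methods), 10 weeks old at the start, which were fed a normal-protein diet (NPD, 20% of kcal from protein) or a high-protein diet (HPD, 60% of kcal from protein). For 7 days they drank water with corticosterone (cort), the main glucocorticoid of rodents, or with vehicle (veh), and all groups were fasted for 4 h before the tissues were taken. With veh or cort on each diet this made 4 groups per tissue of 4 libraries each, named by treatment and diet (for example Cort HPD). No transgene or mutant allele is given for any group, and the HPD held less carbohydrate than the NPD at the same fat content, so that protein and carbohydrate cannot be told apart in the diet comparisons.

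Fatty acids are activated to acyl-CoA, passed into mitochondria by the carnitine shuttle and shortened in cycles of beta-oxidation, whose electrons reach the respiratory chain through the electron transfer flavoproteins. In the fasted liver much of the acetyl-CoA formed is turned into ketone bodies, while peroxisomes shorten very long and branched chains and microsomal Cyp4a enzymes hydroxylate the far end of the chain. PPARα is the fatty acid receptor that drives these genes in liver, and glucocorticoids act through a different nuclear receptor that is active in liver and fat alike.

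Library totals ranged from 8933307 to 17447524 counts in liver and from 9794683 to 18057936 in eWAT. Levels are CPM values (counts over the library total, scaled by edgeR's TMM factor), differences are log2 fold changes with their standard error (SE), and a gene was called where the Benjamini-Hochberg adjusted p of edgeR's quasi-likelihood test, taken over all genes tested in a tissue, was under 0.05. Liver Veh HPD replicate 4 was left out of the liver fits: its mean correlation with its own group was 0.912 against 0.943 to 0.973 for the other liver libraries, and its 12 hepatocyte markers summed to 53883 CPM against 98179 to 289271. The hepatocyte sums in liver were 101947 to 142784 CPM in Veh NPD, 98179 to 108521 in Veh HPD, 129614 to 159227 in Cort NPD and 179718 to 289271 in Cort HPD. The sums of 10 adipocyte markers in liver, a list that holds genes such as Pck1 that hepatocytes also express, were lower with cort, at 4552 to 6001 CPM in Veh NPD, 3392 to 4459 in Veh HPD, 1796 to 2353 in Cort NPD and 1561 to 2094 in Cort HPD. The sums of 5 red blood cell markers were 5271 to 7622 CPM in Cort HPD against 1358 to 3544 in the other fitted liver libraries. With cort on the NPD, the sums of 7 macrophage markers went from 138 to 194 CPM in veh to 55.4 to 134 in cort, and those of 6 enterocyte markers from 386 to 758 CPM to 2749 to 4633. Of the 6 enterocyte markers, 2 were detected in Cort NPD replicates 2 and 3, 3 in replicate 4 and 6 in replicate 1. In Veh NPD 2 or 3 were detected, so in most libraries these sums rest on few genes. The 8 skeletal muscle markers, all detected in Cort NPD replicate 3, summed to 574 CPM there, against at most 53.5 CPM in the other liver libraries. The part of these marker differences in the liver results was not tested, and in whole tissue fewer cells of a type and less RNA per cell cannot be told apart.

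Of the 35 genes, 34 passed the filter on low counts in liver and 29 in eWAT. Cpt1b, the muscle form of the import enzyme, had 0 counts in all 32 libraries, which allows up to 3 counts in each. In the mouse annotation of build GRCm38, 81.4% of its exonic bases (chromosome 15, 89416405 to 89425863) and all 351 of the 50-base words in its last 400 bases are shared with Gm44502 on the same strand, a gene not analysed here, so the 0 is not a measure of absence. In eWAT the microsomal genes, Fabp1, Bdh1 and Acot3 also had too few counts: Cyp4a14 had 0 counts in all 16 libraries, and the others stayed at or below 1.27 CPM. Reads are counted near the 3′ end, and there Acaa1a and Acaa1b share 36.2% of their 50-base words and Etfb shares 34.2% with Gm45233, so the split of reads within these pairs is uncertain. In liver Acaa1a was not called on either diet while Acaa1b was called on both.

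PPARα binds as a pair with a second receptor to repeats of AGGTCA spaced by a single base. Promoter sequence from RefSeq (GRCm38.p6, 250 bases before to 50 after the start) was matched to 27 of the 35 genes in 30 windows. The repeat, AGGTCA, any base, AGGTCA, was searched on both strands of the 250 bases before the start with up to 2 differing bases, and was found in 4 of the 30 windows (13.3%) against 3.24% of 32851 windows of all genes. With up to 1 differing base the shares were 3.33%, which is Fabp1 alone, and 0.484%. The 4 stretches of 100 bases are shown because they carry the letters associated with the receptor of this gene group. Each ends at the RefSeq start for Acot4 and Etfa, and for Fabp1 and Echs1 upstream of it, where the GENCODE annotation begins the gene. Counted from the RefSeq start, the match begins 67 bases before it in Fabp1, 13 in Acot4, 77 in Etfa and 83 in Echs1. Capitals mark the match, which reads on the opposite strand for Fabp1, Acot4 and Etfa and on the gene's strand for Echs1. All are given 5′ to 3′ on the strand of the gene.
Fabp1, chr6:71199727-71199826, plus strand: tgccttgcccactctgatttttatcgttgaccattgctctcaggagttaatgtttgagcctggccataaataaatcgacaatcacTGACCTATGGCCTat
Acot4, chr12:84038279-84038378, plus strand: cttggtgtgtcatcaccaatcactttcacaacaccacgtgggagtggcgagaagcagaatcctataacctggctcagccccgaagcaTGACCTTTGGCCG
Etfa, chr9:55512244-55512343, minus strand: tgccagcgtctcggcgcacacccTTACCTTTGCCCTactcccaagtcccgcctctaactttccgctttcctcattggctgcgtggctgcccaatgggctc
Echs1, chr7:140116477-140116576, minus strand: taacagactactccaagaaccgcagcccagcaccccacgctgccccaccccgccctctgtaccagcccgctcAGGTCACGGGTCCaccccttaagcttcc
A match is a description of the letters and not a measured binding site. In liver on the NPD, Fabp1 and Etfa were lower with cort, Acot4 was higher and Echs1 was not called, with values given below by role.

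Cort changed the liver genes in both directions. On the NPD, 10 of the 34 genes tested were called (background over all 12391 genes, 12.6%), with Acot4 and Hsd17b4 higher and Fabp1, Acaa1b, Ehhadh, Bdh1, Acat1, Eci2, Etfa and Eci1 lower. On the HPD, 5 were called (background 9.89%), with Acadm higher and Fabp1, Acaa1b, Bdh1 and Cpt1a lower. The median log2 fold change over the genes tested was -0.17 on the NPD and -0.14 on the HPD, beside -0.01 and 0.00 over all genes. By role, called genes on the NPD were 4 of 6 peroxisomal, 2 of 2 ketone, 1 of 2 other targets, 1 of 4 thioesterase, 1 of 3 electron transfer and 1 of 11 beta-oxidation genes, and none of the 4 import genes tested or the 2 microsomal genes. The NPD count was 4 when all 16 liver libraries were fitted and 6 without Veh NPD replicate 1, Veh NPD replicate 4 or Cort NPD replicate 2. On the HPD the count was 8 with limma voom and 9 with library totals in place of TMM scaling, where the median of all genes moved by -0.24 and the share of called genes that were higher fell from 48% to 17.8%.

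**Figure D1:**
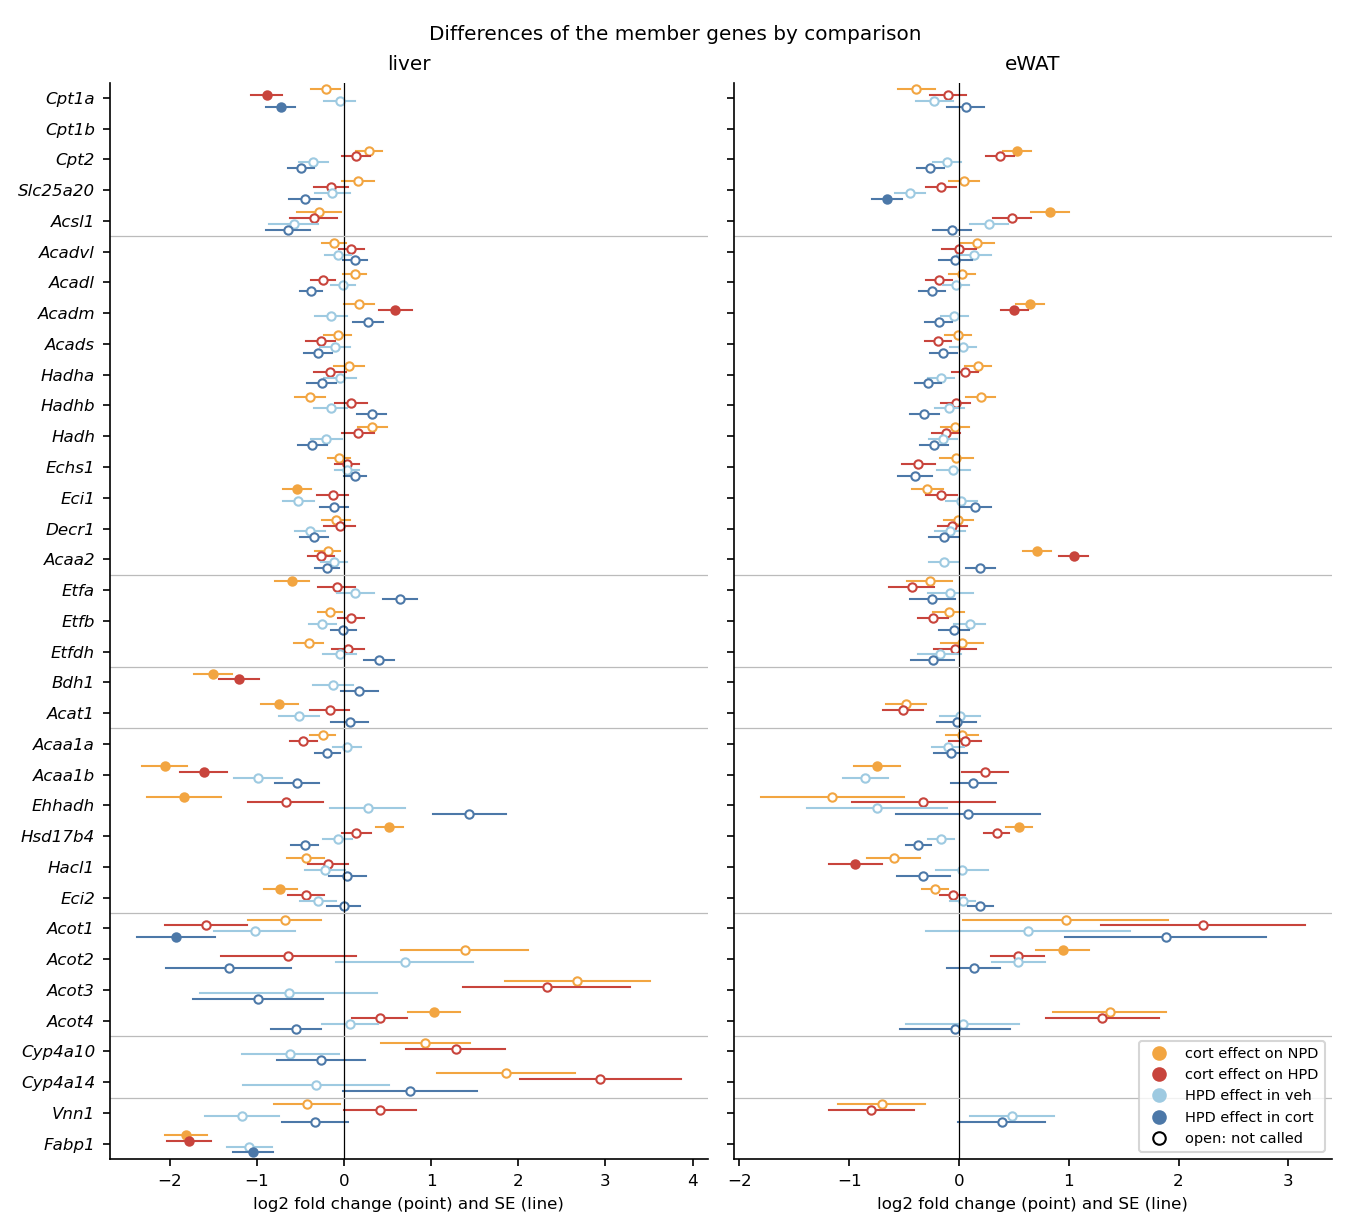
Log2 fold change (point, horizontal axis) with its SE (line) of each gene in liver (left) and eWAT (right), with genes grouped by role between grey lines and colours for the 4 comparisons. Filled points passed an adjusted p under 0.05 in edgeR, open points did not, and a gene with no point was not tested. Fabp1, Acaa1b and Bdh1 lie left of 0 with cort on both diets in liver, and Acaa2 and Acadm lie right of 0 with cort on both diets in eWAT.

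Fabp1 encodes the fatty acid-binding protein of the liver cell, which carries fatty acids through the cytosol and to PPARα. Its levels in Veh NPD liver were 7954, 9206, 7383 and 6592 CPM, and in Cort NPD they were 1873, 2003, 1657 and 3322 CPM. In Veh HPD they were 2994, 3591 and 4438 CPM, with 631 CPM in the library left out, and in Cort HPD 1536, 678, 1036 and 1046 CPM. On either diet every cort library lay below every veh library of the fit. The log2 fold change with cort was -1.81 (SE 0.24, edgeR adjusted p = 2.03e-05) on the NPD and -1.78 (SE 0.25, edgeR adjusted p = 9.48e-05) on the HPD, and with the library left out restored it was -1.43 (edgeR adjusted p = 0.0427) on the HPD. Vnn1, whose enzyme pantetheinase recycles the vitamin part of coenzyme A, was at 37.3 ± 16.8 CPM (SD, n = 4) in Veh NPD and 27.9 ± 12.6 CPM (SD, n = 4) in Cort NPD. Its cort effect was -0.42 (SE 0.37, edgeR adjusted p = 0.523) on the NPD and 0.41 (SE 0.41, edgeR adjusted p = 0.589) on the HPD, so it did not pass the test.

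Of the 6 peroxisomal genes, 3 fell and 1 rose with cort on the NPD in liver. Acaa1b, a thiolase that cuts acetyl-CoA from the chain in peroxisomes, was at 511, 447, 894 and 666 CPM in Veh NPD and 153, 196, 87.9 and 169 CPM in Cort NPD. In Veh HPD it was at 238, 349 and 367 CPM and in Cort HPD at 111, 71.3, 108 and 128 CPM. The groups did not overlap on either diet. Its cort effect was -2.06 (SE 0.26, edgeR adjusted p = 2.74e-05) on the NPD and -1.61 (SE 0.27, edgeR adjusted p = 8.23e-04) on the HPD. Ehhadh, the bifunctional enzyme of the PPARα-driven peroxisomal pathway, was at 17.3, 25.2, 32.5 and 28.8 CPM in Veh NPD and 6.93, 8.97, 4.39 and 8.75 CPM in Cort NPD, with no overlap and a cort effect of -1.83 (SE 0.42, edgeR adjusted p = 0.0123). On the HPD the cort libraries were split, at 40.5, 9.59, 19.8 and 9.43 CPM against 31.9, 33.2 and 29.1 CPM in Veh HPD, and the effect was -0.67 (SE 0.43, edgeR adjusted p = 0.374). Without Cort HPD replicate 1, which is the high library and has the lowest TMM factor in liver (0.754), it was -1.28 (adjusted p = 0.0105).

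Hsd17b4, the bifunctional enzyme that handles branched and very long chains, was higher with cort on the NPD, at 99.6, 102, 114 and 85.6 CPM in Veh NPD and 128, 159, 143 and 145 CPM in Cort NPD. The groups did not overlap, and the effect was 0.52 (SE 0.15, edgeR adjusted p = 0.0274). On the HPD its cort effect was 0.14 (SE 0.17, edgeR adjusted p = 0.646). Omitting a single library ended its NPD call in 6 of 15 cases, namely Veh NPD replicates 1, 2 and 4 and Cort NPD replicates 2, 3 and 4. Fitting all 16 liver libraries also ended it (edgeR adjusted p = 0.0745). Eci2, an isomerase that moves double bonds so that unsaturated chains can be degraded, fell from 163 ± 26.8 CPM (SD, n = 4) in Veh NPD to 98.0 ± 11.3 CPM (SD, n = 4) in Cort NPD, by -0.73 (SE 0.19, edgeR adjusted p = 0.0135) on the log2 scale, and with all 16 liver libraries this call was lost (edgeR adjusted p = 0.0949). Acaa1a, the other peroxisomal thiolase gene, and Hacl1, a lyase of alpha-oxidation, did not pass the test on the NPD, at -0.24 (SE 0.15) and -0.44 (SE 0.21). On the HPD the groups of Acaa1a did not overlap, with an effect of -0.47 (SE 0.16, edgeR adjusted p = 0.066). Hacl1 was called without Cort HPD replicate 1, at -0.44 (adjusted p = 0.0298) on the NPD and -0.55 (adjusted p = 0.0296) on the HPD.

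Both ketone genes were lower with cort on the NPD. Bdh1, the mitochondrial dehydrogenase that converts acetoacetate to beta-hydroxybutyrate, was at 183, 194, 276 and 215 CPM in Veh NPD and 60.3, 96.3, 52.2 and 97.0 CPM in Cort NPD. In Veh HPD it was at 150.1, 199 and 247 CPM, with 121 in the library left out, and in Cort HPD at 65.5, 79.9, 108 and 92.6 CPM. All cort libraries lay below all veh libraries on either diet. The cort effect was -1.5 (SE 0.22, edgeR adjusted p = 7.21e-05) on the NPD and -1.20 (SE 0.23, edgeR adjusted p = 0.00171) on the HPD. Acat1, the mitochondrial thiolase that makes acetoacetyl-CoA, was at 576, 577, 609.8 and 855 CPM in Veh NPD and 416, 433, 333 and 384 CPM in Cort NPD, with no overlap and an effect of -0.74 (SE 0.21, edgeR adjusted p = 0.0232). This call was lost without Veh NPD replicate 4, the highest library (edgeR adjusted p = 0.0907). It was also lost without Cort NPD replicate 3, the liver library high in skeletal muscle markers (edgeR adjusted p = 0.071). On the HPD the effect of Acat1 was -0.16 (SE 0.23, edgeR adjusted p = 0.704), and Cort HPD replicate 1 was again the highest of its group at 636 CPM.

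**Figure D2:**
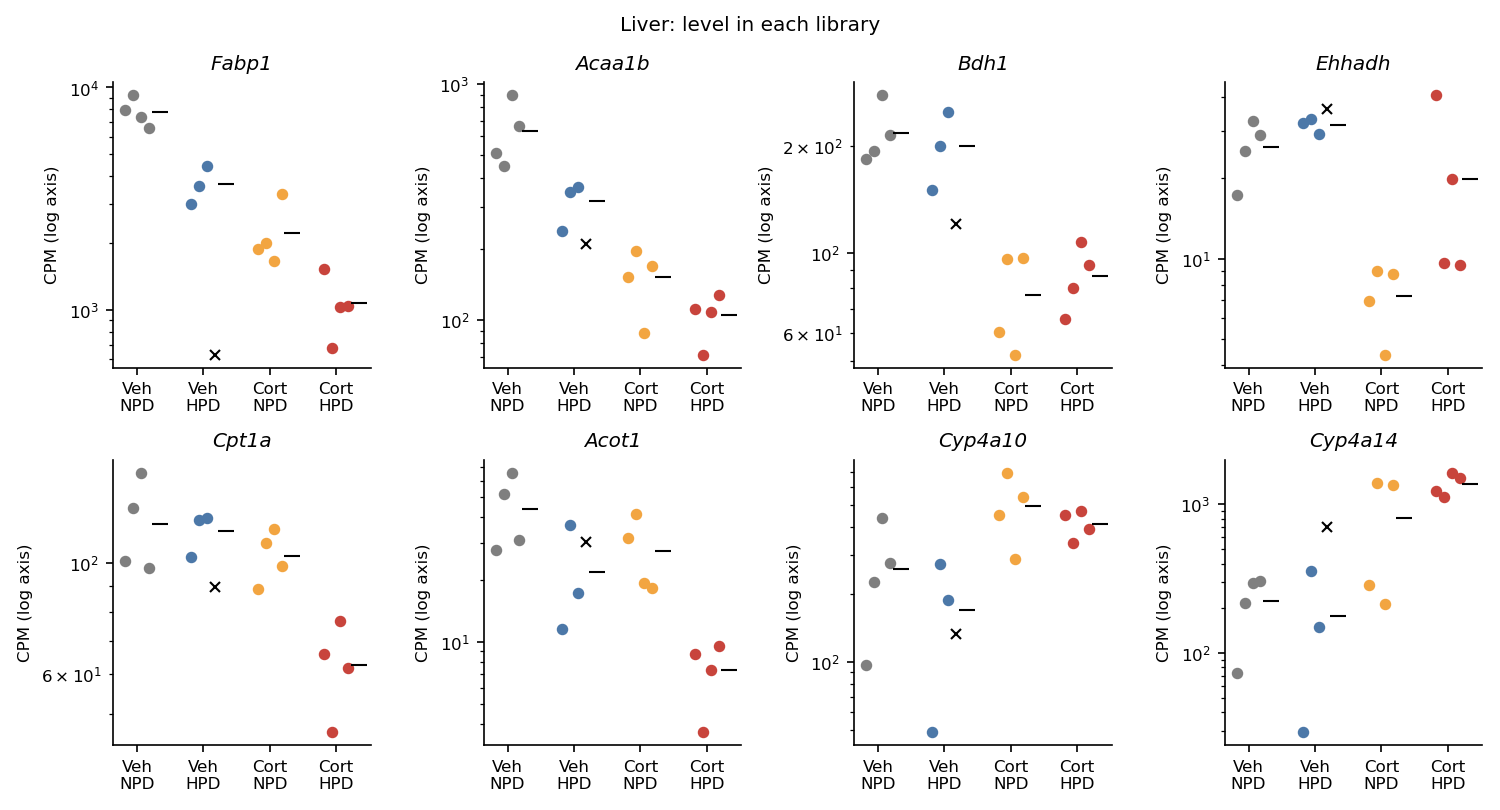
Level in CPM (log axis) of 8 genes in each liver library by group, with a dash for the group mean of the libraries fitted and a cross for the Veh HPD library left out. The cross was scaled separately, by TMM over all 16 liver libraries. Fabp1, Acaa1b and Bdh1 are lower in every cort library than in every fitted veh library of the same diet, Cpt1a and Acot1 are lowest in Cort HPD, and Cyp4a14 is between 1125 and 1626 CPM in the 4 Cort HPD libraries.

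Cpt1a, the carnitine palmitoyltransferase that controls the entry of long chains into mitochondria, was lower with cort on the HPD. It was at 103, 122 and 123 CPM in Veh HPD and 66.0, 46.1, 76.6 and 61.9 CPM in Cort HPD, with no overlap, and the effect was -0.89 (SE 0.18, edgeR adjusted p = 0.00273). On the NPD it was at 101, 129, 151 and 97.7 CPM in Veh NPD and 88.9, 109, 117 and 98.6 CPM in Cort NPD, and these groups overlapped. The NPD effect was -0.21 (SE 0.17, edgeR adjusted p = 0.459). The cort effect on the HPD minus that on the NPD was -0.68 (SE 0.25, edgeR adjusted p = 0.264), so a difference in cort effect between the diets was not shown. The call on the HPD held in every alternative run, at log2 fold changes from -1.13 to -0.76. Of the other import genes, Acsl1, which activates long-chain fatty acids, Slc25a20, the carrier of acylcarnitines, and Cpt2, which returns the chain to CoA inside the mitochondrion, had cort effects of -0.28, 0.16 and 0.29 on the NPD and -0.35, -0.15 and 0.14 on the HPD, none called.

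Most mitochondrial beta-oxidation genes did not pass the test with cort in liver, with log2 fold changes from -0.54 to 0.33 on the NPD and from -0.27 to 0.59 on the HPD. Eci1, the mitochondrial isomerase for unsaturated chains, was at 126, 127, 133 and 123 CPM in Veh NPD and 97.9, 85.2, 70.9 and 97.1 CPM in Cort NPD, with no overlap and an effect of -0.54 (SE 0.16, edgeR adjusted p = 0.0302). Acadm, the medium-chain dehydrogenase, was at 141, 194 and 176 CPM in Veh HPD and 308, 197, 293 and 229 CPM in Cort HPD, with no overlap and an effect of 0.59 (SE 0.19, edgeR adjusted p = 0.0451). Among the electron transfer genes, Etfa, a subunit of the flavoprotein that takes electrons from the acyl-CoA dehydrogenases, was at 185, 182, 166 and 226 CPM in Veh NPD and 140.0, 131, 117 and 114 CPM in Cort NPD, with no overlap and an effect of -0.60 (SE 0.20, edgeR adjusted p = 0.0482). These 3 calls lie close to the threshold. Leaving out 1 library lost that of Eci1 in 5 of 15 fits (edgeR adjusted p up to 0.101). It lost that of Acadm in 10 of 15 (up to 0.217) and that of Etfa in 11 of 15 (up to 0.136). With all liver libraries fitted, the calls of Eci1 and Etfa were also lost (edgeR adjusted p = 0.0829 and 0.102). The Acadm call was also lost in 3 of the 8 other alternatives. Its effect was 0.34 with library totals (edgeR adjusted p = 0.192), 0.58 with only the groups compared (edgeR adjusted p = 0.105) and 0.60 with the replicate block (edgeR adjusted p = 0.0733). The other beta-oxidation genes (Acadvl, Acadl and Acads, dehydrogenases for other chain lengths; Hadha and Hadhb, the trifunctional protein; Hadh, Echs1, Decr1 and Acaa2) and the electron transfer genes Etfb and Etfdh were not called on either diet. Their group means in Veh NPD ran from 72.8 ± 8.54 CPM (SD, n = 4) for Hadhb to 848 ± 87.3 CPM (SD, n = 4) for Acaa2.

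Several microsomal and thioesterase genes varied widely within liver groups. Cyp4a14, a fatty acid omega-hydroxylase, was at 73.6, 218, 295 and 304 CPM in Veh NPD and 285, 1384, 215 and 1350.5 CPM in Cort NPD. In Veh HPD it was at 29.4, 357 and 149.5 CPM, with 709 in the library left out, and in Cort HPD at 1227, 1125, 1626 and 1504 CPM. On the NPD only Cort NPD replicates 2 and 4 lay above the veh libraries, whereas on the HPD all 4 cort libraries did. The cort effect was 1.86 (SE 0.79, edgeR adjusted p = 0.157) on the NPD and 2.94 (SE 0.92, edgeR adjusted p = 0.0709) on the HPD. By other tools the HPD effect passed the threshold, with 2.94 (adjusted p = 0.00401) in DESeq2 and 3.54 (adjusted p = 0.0031) in limma voom, and it did with the replicate block, at 3.36 (adjusted p = 0.0352). With all 16 liver libraries in edgeR it did not, at 2.17 (adjusted p = 0.13). Cyp4a10, the other hydroxylase, was at 48.7, 272 and 188 CPM in Veh HPD and 449, 337, 473 and 391 CPM in Cort HPD, without overlap, and its effects of 0.93 (SE 0.51, edgeR adjusted p = 0.278) on the NPD and 1.28 (SE 0.57, edgeR adjusted p = 0.189) on the HPD did not pass.

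The thioesterases release free fatty acids from acyl-CoA, Acot1 in the cytosol, Acot2 in mitochondria and Acot3 and Acot4 in peroxisomes. Acot4 was at 2.92, 6.90, 7.19 and 4.23 CPM in Veh NPD and 8.93, 16.5, 6.51 and 11.3 CPM in Cort NPD, and although these ranges overlapped it was called on the NPD, at 1.03 (SE 0.30, edgeR adjusted p = 0.025). That call was lost without Veh NPD replicate 1 or 4 or Cort NPD replicate 2 or 4, with edgeR adjusted p of 0.0892, 0.0753, 0.11 and 0.0597. With all 16 liver libraries it was lost as well (edgeR adjusted p = 0.0522). Acot3 was low, at 0.474, 1.06, 5.63 and 1.27 CPM in Veh NPD and 7.08, 28.3, 4.09 and 14.9 CPM in Cort NPD, and its effects were 2.68 (SE 0.83, edgeR adjusted p = 0.0577) on the NPD and 2.33 (SE 0.96, edgeR adjusted p = 0.163) on the HPD. It shares 11.5% of its exonic bases with Gm49366 on the same strand. Acot2, Acot3, Acot4, Vnn1, Cyp4a10 and Cyp4a14 were each highest within Cort NPD in replicates 2 and 4. Acot1 was at 11.5, 36.7 and 17.3 CPM in Veh HPD and 8.73, 3.66, 7.34 and 9.50 CPM in Cort HPD, without overlap, and its effect of -1.58 (SE 0.47, edgeR adjusted p = 0.0531) on the HPD missed the threshold, which it passed in DESeq2 with -1.57 (adjusted p = 0.0133), in limma voom with -1.5 (adjusted p = 0.0315) and with all 16 liver libraries in edgeR with -1.70 (adjusted p = 0.0224).

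The HPD lowered 3 of these genes in liver of cort-treated mice and none was called in veh-treated mice. Under cort, 3 of the 34 genes were called lower and 0 higher on the HPD (background 5.88% in either direction, 2.8% lower and 3.08% higher). The median log2 fold change was -0.26 over the genes tested and -0.01 over all genes. With DESeq2, 5 were called lower and 2 higher, and with library totals 8 lower and 1 higher, where the median of all genes moved by -0.17 and the share of called genes that were higher fell from 52.4% to 23.2%. The sum of the red blood cell markers was higher in each Cort HPD than in each Cort NPD library (of the 5 markers, 2 called higher and 1 lower). So was the sum of the hepatocyte markers (4 of 12 called higher), and the part of either in this comparison was not tested. Acot1 was at 31.6, 41.4, 19.3 and 18.3 CPM in Cort NPD and 8.73, 3.66, 7.34 and 9.50 CPM in Cort HPD, without overlap and with an effect of -1.93 (SE 0.45, edgeR adjusted p = 0.0266). For Fabp1 and Cpt1a, whose levels are given above, the groups also did not overlap and the effects were -1.04 (SE 0.23, edgeR adjusted p = 0.0101) and -0.72 (SE 0.17, edgeR adjusted p = 0.0131). With all 16 liver libraries in the fit, Fabp1 lost its call, at -1.03 (edgeR adjusted p = 0.198). Acot1 lost its call without Cort NPD replicate 1 or 2 or Cort HPD replicate 1, 2 or 3, with edgeR adjusted p from 0.0546 to 0.0672. It also lost it in 2 of the 8 other alternatives, among them the replicate block, at an edgeR adjusted p of 0.0543. Cpt1a lost it without Cort NPD replicate 3, the liver library high in skeletal muscle markers, at an edgeR adjusted p of 0.0542. Etfa and Ehhadh were higher in each Cort HPD library than in each Cort NPD library, at 0.65 (SE 0.20, edgeR adjusted p = 0.0537) and 1.44 (SE 0.42, edgeR adjusted p = 0.0633), which did not pass.

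In veh-treated mice edgeR called 0 of 34 genes between the diets (background 0.169%), DESeq2 called 2 and limma voom 0. In edgeR 8 of the 34 had an unadjusted p under 0.05, beside 1165 of all 12391 genes. The median over the genes tested was -0.15 beside 0.00 over all genes, and 28 of the 34 log2 fold changes were negative. Fabp1 was lower in each fitted Veh HPD library than in each Veh NPD library, by -1.08 (SE 0.26, edgeR adjusted p = 0.102), and so was Acaa1b, by -0.99 (SE 0.28, edgeR adjusted p = 0.194). These are the 2 genes that DESeq2 called, at -1.09 (adjusted p = 0.00696) and -0.99 (adjusted p = 0.0342). Fabp1 was also called by edgeR without Cort HPD replicate 1, at -1.08 (adjusted p = 0.04). The test of whether the cort effect differed between the diets called 0 of 34 genes in liver (background 0.113%), and DESeq2 and limma voom called 0. In edgeR 1 had an unadjusted p under 0.05, beside 1496 of all 12391 genes.

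In eWAT, cort raised several mitochondrial genes. On the NPD 7 of the 29 genes tested were called (background over all 15187 genes, 7.98%), with Acaa2, Acadm, Acsl1, Cpt2, Hsd17b4 and Acot2 higher and Acaa1b lower. On the HPD 3 were called (background 6.09%), with Acaa2 and Acadm higher and Hacl1 lower. The median log2 fold change over the genes tested was 0.03 on the NPD and -0.06 on the HPD, beside -0.02 and 0.00 over all genes. Without Veh HPD replicate 4 the HPD count was 6, with Acsl1 at 0.77 (adjusted p = 1.38e-04), Acot2 at 0.98 (adjusted p = 1.18e-04) and Acot4 at 1.95 (adjusted p = 0.0219) added in edgeR. With only the groups compared in the fit it was 1, Acaa2. With library totals the share of all called genes that were higher with cort on the NPD went from 50.7% to 36.1%.

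Markers of other cell types were detected in eWAT. Cort HPD replicate 4 held 10 of 12 testis and epididymis markers at a sum of 10355 CPM, against at most 11.6 CPM in the other eWAT libraries, and without it the counts on the NPD and HPD stayed at 7 and 3. The 12 hepatocyte markers summed to 920 to 2161 CPM in Veh NPD, 1299 to 2501 in Veh HPD, 2098 to 4038 in Cort NPD and 2505 to 2987 in Cort HPD, of which 9 passed the filter and 1 was called higher with cort on the NPD. The 5 red blood cell markers summed to 12684 to 25856 CPM in Cort HPD against 3619 to 9273 in the other eWAT libraries, and all 5 were called higher with cort on the HPD and with the HPD under cort. The 8 skeletal muscle markers summed to 64.0 to 200 CPM in Veh NPD, 22.1 to 91.8 in Veh HPD, 13.2 to 28.6 in Cort NPD and 15.1 to 29.6 in Cort HPD. The 10 adipocyte markers summed to 57582 to 74142 CPM in Veh NPD, 68904 to 87532 in Veh HPD, 46481 to 58771 in Cort NPD and 51078 to 61362 in Cort HPD. The part of these shifts in the eWAT results was not tested. Fabp1, at 1657 to 9206 CPM in the NPD libraries of liver, was at 0 CPM in 15 of the 16 eWAT libraries and at 0.0679 CPM in Cort NPD replicate 1.

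Acaa2, the mitochondrial thiolase of the last beta-oxidation step, was at 156, 168, 152 and 143 CPM in Veh NPD eWAT and 273, 237, 296 and 206 CPM in Cort NPD. In Veh HPD it was at 109, 133, 152 and 169 CPM and in Cort HPD at 285, 280.2, 296 and 297 CPM. On either diet every cort library exceeded every veh library. The cort effect was 0.71 (SE 0.13, edgeR adjusted p = 7.12e-04) on the NPD and 1.04 (SE 0.13, edgeR adjusted p = 6.80e-06) on the HPD, and both calls held in every alternative run. Acadm was at 283, 346, 299 and 332 CPM in Veh NPD and 486, 537, 470.5 and 478 CPM in Cort NPD, with an effect of 0.65 (SE 0.12, edgeR adjusted p = 0.00117). On the HPD it was at 253, 295, 342 and 332 CPM in Veh HPD and 501, 472, 389 and 371 CPM in Cort HPD, again without overlap, with an effect of 0.50 (SE 0.12, edgeR adjusted p = 0.0128). That second call did not survive the omission of replicate 1 of Veh HPD or of Cort HPD (edgeR adjusted p = 0.073 and 0.0698). The other 9 beta-oxidation genes were not called in eWAT on either diet.

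**Figure D3:**
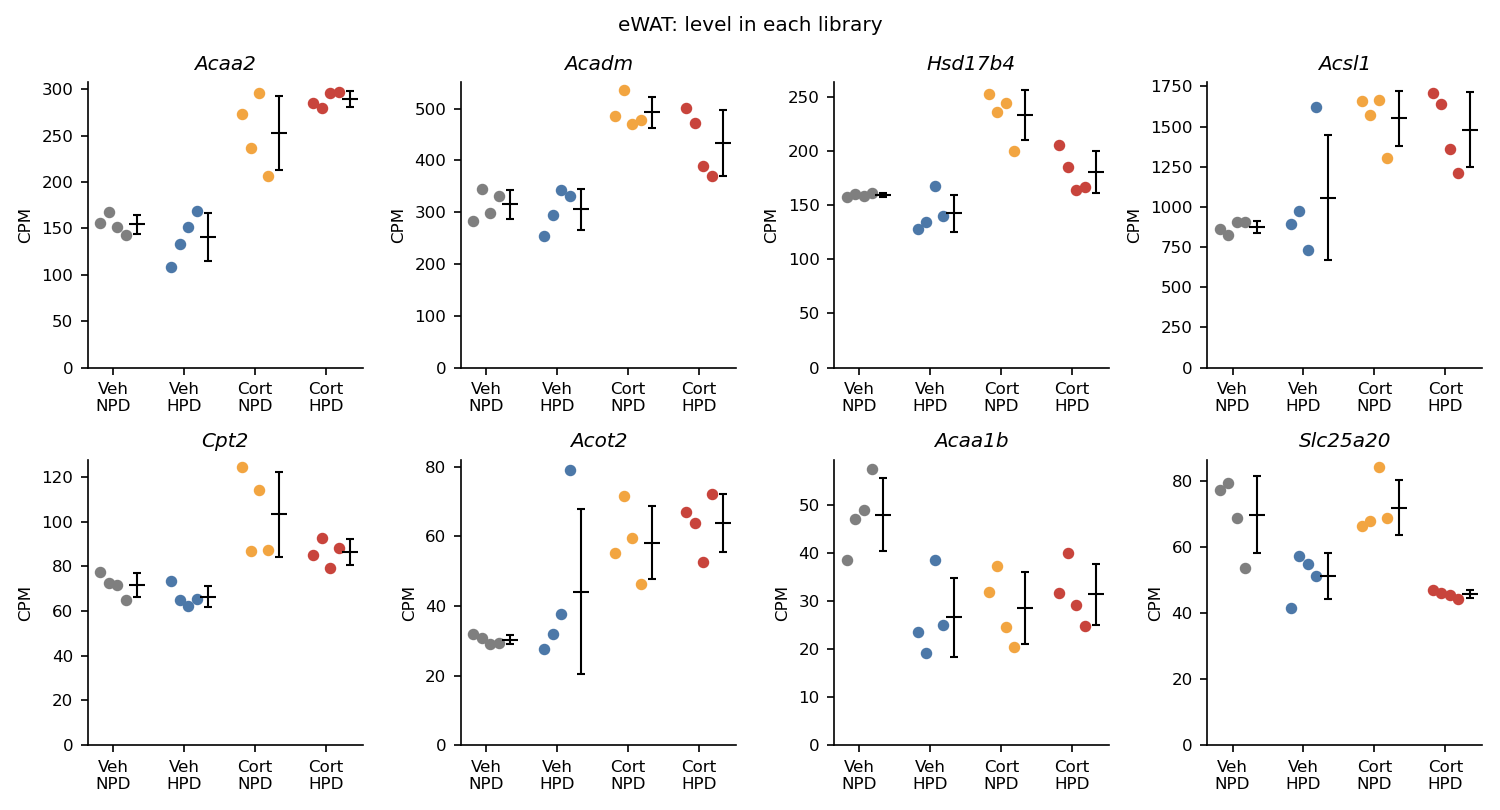
Level in CPM (linear axis from 0) of 8 genes in each eWAT library by group, with the group mean and SD (n = 4) beside the points. Acaa2 and Acadm are higher in every cort library than in every veh library of the same diet, Veh HPD replicate 4 stands above its group for Acsl1 (1620 CPM) and Acot2 (79.1 CPM), and Slc25a20 is at 44.1 to 46.9 CPM in Cort HPD.

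Of the import genes, Acsl1 was at 861, 824, 904 and 905 CPM in Veh NPD and 1659, 1573, 1668 and 1302 CPM in Cort NPD, with an effect of 0.83 (SE 0.17, edgeR adjusted p = 0.00318). On the HPD the effect was 0.49 (SE 0.17, edgeR adjusted p = 0.105), with Veh HPD replicate 4 at 1620 CPM among the cort values. Cpt2 rose by 0.53 (SE 0.13, edgeR adjusted p = 0.0077) on the NPD, from 71.6 ± 5.24 to 103 ± 19 CPM (SD, n = 4 each), a call lost without Cort NPD replicate 1 (edgeR adjusted p = 0.0544). On the HPD the effect of Cpt2 was 0.38 (SE 0.13, edgeR adjusted p = 0.0792). Cpt1a and Slc25a20 were not called with cort, at -0.39 and 0.04 on the NPD and -0.10 and -0.17 on the HPD. Acot2, the mitochondrial thioesterase, was at 31.8, 30.7, 29.0 and 29.5 CPM in Veh NPD and 55.3, 71.7, 59.7 and 46.3 CPM in Cort NPD, with no overlap. Its effect was 0.94 (SE 0.24, edgeR adjusted p = 0.0198), and the call ended in 6 of 16 fits with a library omitted (each Veh NPD library and Cort NPD replicates 2 and 3, edgeR adjusted p up to 0.0734).

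The peroxisomal genes moved in both directions in eWAT. Hsd17b4 was at 158, 161, 158 and 162 CPM in Veh NPD and 253, 237, 245 and 200.1 CPM in Cort NPD, with an effect of 0.55 (SE 0.12, edgeR adjusted p = 0.00291), and on the HPD the effect was 0.34 (SE 0.12, edgeR adjusted p = 0.0842). Acaa1b was at 38.6, 47.1, 48.9 and 57.4 CPM in Veh NPD and 31.8, 37.4, 24.6 and 20.5 CPM in Cort NPD, with no overlap and an effect of -0.75 (SE 0.21, edgeR adjusted p = 0.0223). That call was lost without Veh NPD replicate 3 or 4 or Cort NPD replicate 3 or 4 (edgeR adjusted p from 0.0546 to 0.0894). Its effect on the HPD was 0.24 (SE 0.21, edgeR adjusted p = 0.595). Hacl1 was at 18.7, 23.1, 19.2 and 18.8 CPM in Veh HPD and 12.6, 10.2, 4.65 and 14.0 CPM in Cort HPD, without overlap and with an effect of -0.94 (SE 0.24, edgeR adjusted p = 0.0175), a call lost without Veh HPD replicate 2 or Cort HPD replicate 3 (edgeR adjusted p = 0.0594 and 0.0551). On the NPD the effect of Hacl1 was -0.59 (SE 0.24, edgeR adjusted p = 0.147). The 3 electron transfer genes, Acat1, Ehhadh, Acaa1a, Eci2 and Vnn1 were not called with cort on either diet.

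Between the diets, 1 of 29 genes was called in cort-treated eWAT (background 0.487%) and 0 in veh-treated eWAT (background 0.0593%). Slc25a20 was at 66.4, 68.0, 84.2 and 68.7 CPM in Cort NPD and 46.9, 46.1, 45.5 and 44.1 CPM in Cort HPD, with no overlap and an effect of -0.65 (SE 0.14, edgeR adjusted p = 0.0208). Its call was lost without Cort NPD replicate 1 or 3 or Cort HPD replicate 3 or 4, the last being the library with testis and epididymis markers (edgeR adjusted p = 0.0671). In veh-treated eWAT 3 genes had an unadjusted p under 0.05 in edgeR (1219 of all 15187 genes), DESeq2 called 1 and limma voom 0. The gene DESeq2 called was Acaa1b, which was lower in each Veh HPD library than in each Veh NPD library, at -0.85 (SE 0.21, edgeR adjusted p = 0.111) by edgeR and -0.86 (adjusted p = 0.0156) by DESeq2. Without Veh HPD replicate 3 edgeR also called it, at -1.09 (adjusted p = 0.0129). The cort effect differed between the diets for 0 of 29 genes in eWAT (background 0.0132%), and DESeq2 and limma voom called 0. In edgeR 1 had an unadjusted p under 0.05, beside 784 of all 15187 genes.

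The response to cort, averaged over the diets, was compared between the tissues in a single fit of the 31 libraries, taken as independent. A pairing of liver and eWAT libraries by mouse is not given in the labels and was not checked. Of the 34 genes that passed the filter of this fit, 4 were called (background over 16482 genes, 7.76%), all with a lower effect in liver than in eWAT. For Fabp1, Cyp4a10 and Cyp4a14, with nearly no counts in eWAT, the difference could not be estimated (SE 4628, 12808 and 29473). The difference, liver minus eWAT, was -1.10 (SE 0.14, edgeR adjusted p = 1.24e-06) for Acaa2, -1.58 (SE 0.25, edgeR adjusted p = 9.30e-05) for Acaa1b, -0.97 (SE 0.23, edgeR adjusted p = 0.00624) for Acsl1 and -2.75 (SE 0.74, edgeR adjusted p = 0.0202) for Acot1. For Acaa2 the liver effects were -0.19 on the NPD and -0.26 on the HPD against 0.71 and 1.04 in eWAT. Acaa1b was lower with cort in liver on both diets, and in eWAT it was -0.75 on the NPD and 0.24 on the HPD. Acot1 in eWAT rests on few counts, at 0.336 to 1.24 CPM in Veh NPD and 1.05 to 11.7 CPM in Cort HPD. The call of its tissue difference was lost without eWAT Cort NPD replicate 2 (edgeR adjusted p = 0.0709) and in 1 of the 7 other alternatives. Hsd17b4 was called higher on the NPD in both tissues and its tissue difference did not pass, at -0.11 (SE 0.14, edgeR adjusted p = 0.755). In Veh NPD, Bdh1 was at 217 ± 41.5 CPM (SD, n = 4) in liver and 0.402 ± 0.582 CPM (SD, n = 4) in eWAT, so that its cort effect could be read in liver alone.

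**Figure D4:**
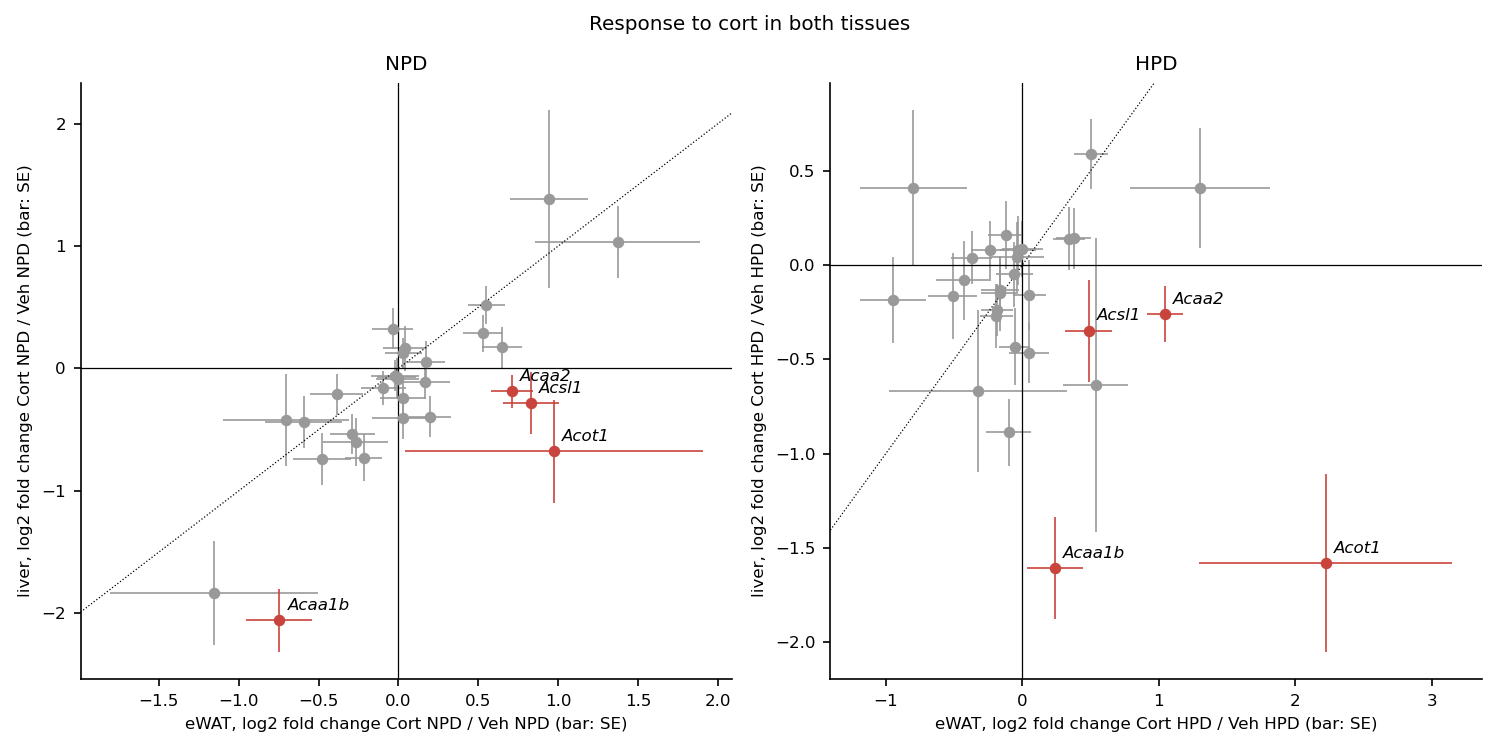
Log2 fold change with cort in liver (vertical axis) against eWAT (horizontal axis) for genes tested in both tissues, on the NPD (left) and the HPD (right), with bars for the SE and a dotted line where both tissues are equal. The 4 labelled genes in red are those whose mean cort effect differed between the tissues, and all lie below the dotted line on both diets.

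A wider list of 63 other genes of fatty acid uptake, oxidation, ketone metabolism and PPARα action was read in the same fits, and 60 were tested in liver and 54 in eWAT. In liver, cort on the NPD raised 6 and lowered 4 of them (background 12.6% in either direction), and on the HPD raised 3 and lowered 6 (background 9.89% in either direction). Cd36, a fatty acid uptake protein of the cell surface, was at 20.5, 17.0, 30.0 and 38.9 CPM in Veh NPD and 96.4, 144, 99.6 and 115 CPM in Cort NPD, and rose by 2.09 (SE 0.27, edgeR adjusted p = 4.76e-05) on the NPD and 2.05 (SE 0.30, edgeR adjusted p = 2.54e-04) on the HPD. Crot, which moves shortened chains out of peroxisomes as carnitine esters, was at 407, 428, 400.5 and 283 CPM in Veh NPD and 105, 126, 81.6 and 105 CPM in Cort NPD, with effects of -1.86 (SE 0.22, edgeR adjusted p = 7.65e-06) on the NPD and -1.36 (SE 0.23, edgeR adjusted p = 6.18e-04) on the HPD. Ppargc1b, a coactivator of oxidative genes, changed by -1.03 and -1.16, both called. Cidec, a lipid droplet protein, rose by 1.89 and Retsat by 0.93 on the NPD, and Amacr, a racemase that prepares branched chains for peroxisomes, changed by -0.74. On the HPD Nr1h4, the bile acid receptor, rose by 0.76 and Slc16a7, a monocarboxylate carrier, by 1.07.

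Under cort, the HPD lowered 7 and raised 1 of the 60 genes in liver (background 5.88% in either direction, 2.8% lower and 3.08% higher). Retsat, at -1.37 (SE 0.22, edgeR adjusted p = 9.09e-04), and Angptl4, a secreted inhibitor of lipoprotein lipase, at -1.35 (SE 0.24, edgeR adjusted p = 0.00221), and Pex11a, a peroxisome division protein, at -0.93 (SE 0.21, edgeR adjusted p = 0.0105), had the smallest p among the genes lowered, and Acsl4, another acyl-CoA synthetase, was the gene raised, at 0.89 (SE 0.17, edgeR adjusted p = 0.00308). In veh-treated liver 0 of the 60 were called between the diets (background 0.169%), with 11 at an unadjusted p under 0.05 in edgeR, beside 1165 of all 12391 genes.

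In eWAT the counts of the wider list were near the background: with cort, 4 of the 54 genes were called higher and 1 lower on the NPD (background 7.98% in either direction), and 1 higher and 2 lower on the HPD (background 6.09% in either direction). Ucp2, a carrier of the inner mitochondrial membrane, was at 54.2, 66.3, 60.7 and 64.1 CPM in Veh NPD and 34.8, 32.6, 25.8 and 29.1 CPM in Cort NPD, and changed by -1.0 (SE 0.17, edgeR adjusted p = 2.64e-04) on the NPD and -0.70 (SE 0.17, edgeR adjusted p = 0.0105) on the HPD. Pex19, a peroxisome assembly factor, and Plin2 and Cidec, lipid droplet proteins, rose on the NPD by 0.48, 0.47 and 0.45. Slc16a7 was the other gene lowered on the HPD, at -0.89. Plin2 was the gene called between the diets under cort, at -0.72 (SE 0.12, edgeR adjusted p = 0.00349). Ppara itself was not called in any comparison. Its cort effects were -0.43 (SE 0.40, edgeR adjusted p = 0.554) on the NPD and -0.89 (SE 0.43, edgeR adjusted p = 0.231) on the HPD in liver, where it was at 60.8, 52.1 and 66.1 CPM in Veh HPD and 8.73, 38.2, 44.3 and 37.3 CPM in Cort HPD, and 0.59 (SE 0.31) and 0.20 (SE 0.30) in eWAT.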

How the data were processed

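RNA of liver and eWAT was measured in 32 QuantSeq libraries, which sample the 3′ end of each transcript. The table deposited by the authors holds whole-number read counts by Ensembl gene ID with no normalization, and all of its columns were used. The submitters' processing notes name GRCm38 (mm10), R 4.0.3 and limma, and the aligner, counting program and strand setting are not given in the sources used here. Groups came from the sample labels, which do not say whether libraries of a group are separate mice, so p-values measure the spread between these libraries.

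Of the gene IDs, 47224 of 47643 matched a symbol of the GENCODE annotation of GRCm38. In R 4.3.3 each tissue was fitted with 1 mean per group in edgeR 4.0.16 (filterByExpr with minimum count 10 and total 15, TMM factors, robust quasi-likelihood test, Benjamini-Hochberg over all genes tested, called under 0.05), with 15 liver and 16 eWAT libraries, and 31 for the tissue difference. TMM factors were 0.754 to 1.11 in the 15 liver libraries fitted and 0.928 to 1.06 in eWAT. Depth limits genes with few counts, which the filter removed; replicate pairs differed by a mean chi-square of 15.3 to 207 per gene over 48 pairs, 0 of them identical, so spread beyond counting noise sets the precision. Alternatives were RLE factors, library totals, no filter, DESeq2 1.42.0, limma 3.58.1 voom, only the groups compared, the replicate block, all liver libraries, and each library left out. The steps were tested on simulated data.

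The 35 genes, the wider and marker lists and the rule below were chosen with earlier results of these data known, and nothing here is independent of them. The rule: every gene is named by role, with full statistics for up to 4 called genes of smallest p in each direction of a comparison, and up to 3 from the wider list; other genes given in full were chosen after their values were seen. Some genes of the wider list enter the counts but are not reported here by name.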

Additional observations from a re-analysis of the deposited data

Results flagged for a closer look

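Within groups of 4 libraries, the highest or lowest library stood apart from the rest by Dixon's criterion at the 95% level (the gap to the next library over the range of the group) in 18 of 218 sets of a gene and a group. For independent, normally distributed values chance flags about 1 in 20. CPM values need not be normal and the sets share libraries, so the count does not show an excess over chance. In eWAT, Cort NPD replicate 2 was the highest for Etfa (162 CPM), Etfdh (64.5 CPM) and Acat1 (223 CPM), and Veh NPD replicate 2 for Etfa (242 CPM) and Acat1 (340 CPM). Veh HPD replicate 4 was the highest in eWAT for Eci1 (199 CPM) and Acot4 (4.93 CPM), and Veh HPD replicate 2 for Hacl1 (23.1 CPM). The other eWAT libraries were Veh NPD replicate 1 for Decr1 (194 CPM, high), Cort NPD replicate 1 for Acaa1a (49.0 CPM, low), Cort NPD replicate 3 for Slc25a20 (84.2 CPM, high) and Cort HPD replicate 4 for Hadhb (59.0 CPM, low), the last being the library with testis and epididymis markers. In liver, Veh NPD replicate 3 was high for Hadha (286 CPM) and Acot3 (5.63 CPM), Veh NPD replicate 4 was high for Acat1 (855 CPM) and Veh NPD replicate 1 was low for Eci2 (123 CPM). Cort HPD replicate 1 was high for Etfa (321 CPM) and Cort HPD replicate 2 low for Cpt2 (48.4 CPM).

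The cort effect differed between the tissues, by the test of the difference in the joint fit with edgeR, for Acsl1 (-0.97 for liver minus eWAT), Acaa2 (-1.10), Acaa1b (-1.58) and Acot1 (-2.75).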

How the results depend on the processing

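Of 33 calls of single genes, 17 were lost under at least 1 alternative and none reversed. The 16 that held under every alternative were those of Fabp1, Acaa1b, Bdh1 and Cpt1a with cort on the HPD in liver, of Fabp1, Acaa1b, Bdh1 and Ehhadh with cort on the NPD, of Acaa2, Acadm, Acsl1 and Hsd17b4 with cort on the NPD and Acaa2 on the HPD in eWAT, and of Acaa2, Acaa1b and Acsl1 between the tissues. In liver, the count of genes called with cort on the NPD was 4 with all 16 libraries and 6 to 11 with each library left out. With cort on the HPD it was 9 with library totals, 8 with limma voom and 4 to 6 with each library left out. For the HPD effect in veh it was 1 without the filter, 2 with DESeq2, 1 with only the groups compared and 0 to 1 with each library left out, and for the HPD effect in cort 9 with library totals, 7 with DESeq2 and 2 to 5 with each library left out. In eWAT, the count with cort on the HPD was 1 with only the groups compared and 2 to 6 with each library left out. The HPD effect in veh was 1 with DESeq2 and 0 to 1 with each library left out, and the HPD effect in cort 0 to 1. The causes were not tested. Library totals moved the median of all genes by -0.24 for cort on the HPD and by -0.17 for the HPD effect in cort in liver, and the share of called genes that were higher from 48% to 17.8% and from 52.4% to 23.2%; in eWAT with cort on the NPD that share went from 50.7% to 36.1%.

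With the replicate block the counts were 10, 5, 0 and 2 in liver and 7, 4, 0 and 1 in eWAT, in the order cort on the NPD, cort on the HPD, HPD in veh and HPD in cort, and 4 between the tissues. Deviations of same-numbered libraries had a mean correlation of 0.00065 in liver (-0.131 to 0.161, 3 of 21 pairs over 0.1) and 0.0074 in eWAT (-0.115 to 0.253, 1 of 24 pairs). No pairing by number was thus seen within a tissue. With so few libraries per group a weak one could be missed, and the check does not cover pairs between the tissues.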
